A study of Mus musculus with 20 samples.

Results

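The choroid plexus is a sheet of epithelium in the brain ventricles that makes cerebrospinal fluid. Its cells move sodium, chloride, bicarbonate and water into the ventricle, and they release carrier proteins and enzymes into the fluid. The genes described here are 10 genes of this secretory and ion-transport programme, chosen by name: Ttr, Slc4a2, Slc4a5, Aqp1, Kl, Folr1, Otx2, Clic6, Enpp2 and Prlr. All 10 were among the 19463 genes of the deposited table, and all 10 passed the filter on low values in every comparison.

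Whole brains of male C57BL/6J mice gave poly-A RNA for sequencing, in 4 groups of 5 mice, 20 in all. Katnal2-KO mice, which carry a homozygous deletion of exon 3 of Katnal2, a gene of the katanin family, in every tissue, and wild-type (WT) mice were sampled at 3 weeks (P21) and at 10 weeks (P70). The line was made from EUCOMM targeted ES cells, with the exon removed by a cell-permeable Cre at the two-cell stage. Values are normalized counts as the authors deposited them. The comparisons ask whether the whole-brain levels of these 10 genes differ between genotypes at each age, and between ages in each genotype.

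Sequencing depth, estimated from the spacing of the low values, was about 26100000 to 36600000 reads per mouse at P21 and 23300000 to 26600000 at P70. The neuronal genes that define brain tissue were abundant in every mouse, with Snap25 at 50454 to 65331 normalized counts. Katnal2 was measured first as a check of the labels. It ranged from 78.1 to 96 normalized counts in the P21 KO mice and from 99.3 to 115 in the P21 WT mice, and from 95.1 to 125 and from 101 to 141 at P70. A value over the whole gene is a weak check of the deletion of a single exon, and the P70 ranges overlapped. Both replicate 5 mice at P70 stood apart from the rest of their groups. Over all genes tested, the deviations of these 2 mice from their group means correlated at r = 0.705, against 0.075 to 0.175 for the other replicate numbers at P70. Most comparisons that include P70 mice are also given without the replicate 5 mice.

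Ttr encodes transthyretin, the carrier of thyroid hormone and retinol that the choroid plexus secretes. Enpp2 encodes autotaxin, a secreted enzyme that makes lysophosphatidic acid, and oligodendrocytes also express it (chr15:54838901-54952892, - strand, GRCm38). The ion and water transporters were Slc4a2, an exchanger of chloride for bicarbonate (chr5:24423837-24440950, + strand), Slc4a5, a sodium bicarbonate cotransporter (chr6:83219828-83304945, + strand), Aqp1, the water channel of the apical membrane (chr6:55336432-55348555, + strand), and Clic6, of the chloride intracellular channel family (chr16:92485736-92541243, + strand). The receptors were Kl, the membrane protein klotho, which is also shed into the fluid (chr5:150952607-150993817, + strand), Folr1, the folate receptor through which folate enters the cerebrospinal fluid (chr7:101858331-101870788, - strand), and Prlr, the prolactin receptor (chr15:10177238-10349180, + strand). Otx2 encodes a homeodomain transcription factor needed to form and keep the choroid plexus (chr14:48657677-48673819, - strand).

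RefSeq promoter windows (GRCm38.p6) were matched for 6 of the 10 genes: Slc4a2, Slc4a5, Aqp1, Kl, Otx2 and Prlr. Ttr, Folr1, Clic6 and Enpp2 had no entry in that table. The 250 bases upstream of each of 12 annotated starts were searched on both strands for the OTX homeodomain letters TAATCC, the forkhead letters GTAAACA and the GC box letters GGGCGG. The GC box was added after the windows had been seen. Over 32851 RefSeq windows of the same length, 6.25% held the OTX letters, 3.17% the forkhead letters and 32.7% the GC box. The windows of Kl and Aqp1 are shown because both genes moved with Ttr from mouse to mouse, and 1 of the 3 windows of Prlr because this gene did not. Sequences run 5′ to 3′ on the gene's own strand, with matches in capitals.
Kl, chr5:150952357-150952606, + strand: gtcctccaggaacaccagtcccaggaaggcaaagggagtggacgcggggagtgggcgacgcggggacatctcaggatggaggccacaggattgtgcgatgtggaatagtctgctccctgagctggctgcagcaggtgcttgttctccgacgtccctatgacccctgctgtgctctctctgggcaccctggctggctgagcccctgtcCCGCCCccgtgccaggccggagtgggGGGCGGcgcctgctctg
Aqp1, chr6:55336049-55336298, + strand: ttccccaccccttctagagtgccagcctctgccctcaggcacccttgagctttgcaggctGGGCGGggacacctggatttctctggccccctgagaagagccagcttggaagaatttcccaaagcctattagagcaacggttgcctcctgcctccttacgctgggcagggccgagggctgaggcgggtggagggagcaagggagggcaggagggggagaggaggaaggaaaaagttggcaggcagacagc
Prlr, chr15:10223656-10223905, + strand: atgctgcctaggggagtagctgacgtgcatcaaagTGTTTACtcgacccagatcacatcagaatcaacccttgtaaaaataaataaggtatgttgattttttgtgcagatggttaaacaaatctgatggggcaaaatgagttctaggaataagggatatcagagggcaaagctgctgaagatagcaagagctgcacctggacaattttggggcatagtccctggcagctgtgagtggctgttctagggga

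Kl held the GC box letters 17 bases upstream of its start on the sense strand and 43 bases upstream on the antisense strand, and Aqp1 held them 190 bases upstream. The window of Slc4a5 held them 35 bases upstream. The forkhead letters stood 215 bases upstream of the shown start of Prlr, and the OTX letters 211 bases upstream of 1 of the 4 starts of Otx2, both on the antisense strand. That Otx2 window lies wholly within annotated GENCODE exons, as do 103 bases of the Slc4a5 window. The windows of Slc4a2 held none of the letters. G and C made up 66.8% of the Kl window, 62% of the Aqp1 window and 44.8% of the Prlr window, against 53.2% over all windows. They made up 69.2% and 61.2% of the windows of Slc4a2, a gene whose correlation with Ttr did not pass, as described below. The Prlr windows not shown held none of the letters, with 48% and 32.8% G and C. Whether letters or base content go with movement with Ttr was not tested. Each match is a match of letters and was not tested as a binding site.

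Ttr was the most abundant of the 10 genes (chr18:20665280-20674321, + strand, GRCm38). Divided by the length of the principal transcript in kilobases, its level in P21 WT mice was 12141 ± 1976 (SD, n = 5) normalized counts per kb. Enpp2 followed at 3985 ± 247 per kb and Slc4a2 at 388 ± 43.2 per kb, and the ranges of these 3 genes did not overlap with each other or with those below them. Clic6 (88.8 ± 9.99 per kb), Kl (83.8 ± 15.1 per kb), Folr1 (68.8 ± 9.55 per kb) and Otx2 (59.5 ± 12.7 per kb) formed a middle tier, in which each gene's range overlapped with that of its neighbour. Aqp1 (34.2 ± 9.4 per kb), Prlr (20.8 ± 2.18 per kb) and Slc4a5 (18.5 ± 4.84 per kb) were the lowest, and their ranges also overlapped. At P70 the WT means were 13803 per kb for Ttr, 3536 for Enpp2 and 428 for Slc4a2, and Kl (135 ± 22.8 per kb) and Clic6 (127 ± 40.4 per kb) were again neighbours with overlapping ranges. Among all genes of the table, by normalized count and not per length, Ttr ranked between 83 and 337 in the 20 mice. Kcnj13, Sostdc1 and Tmem72, further markers of choroid plexus epithelium, were detected in every mouse.

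**Figure D1:**
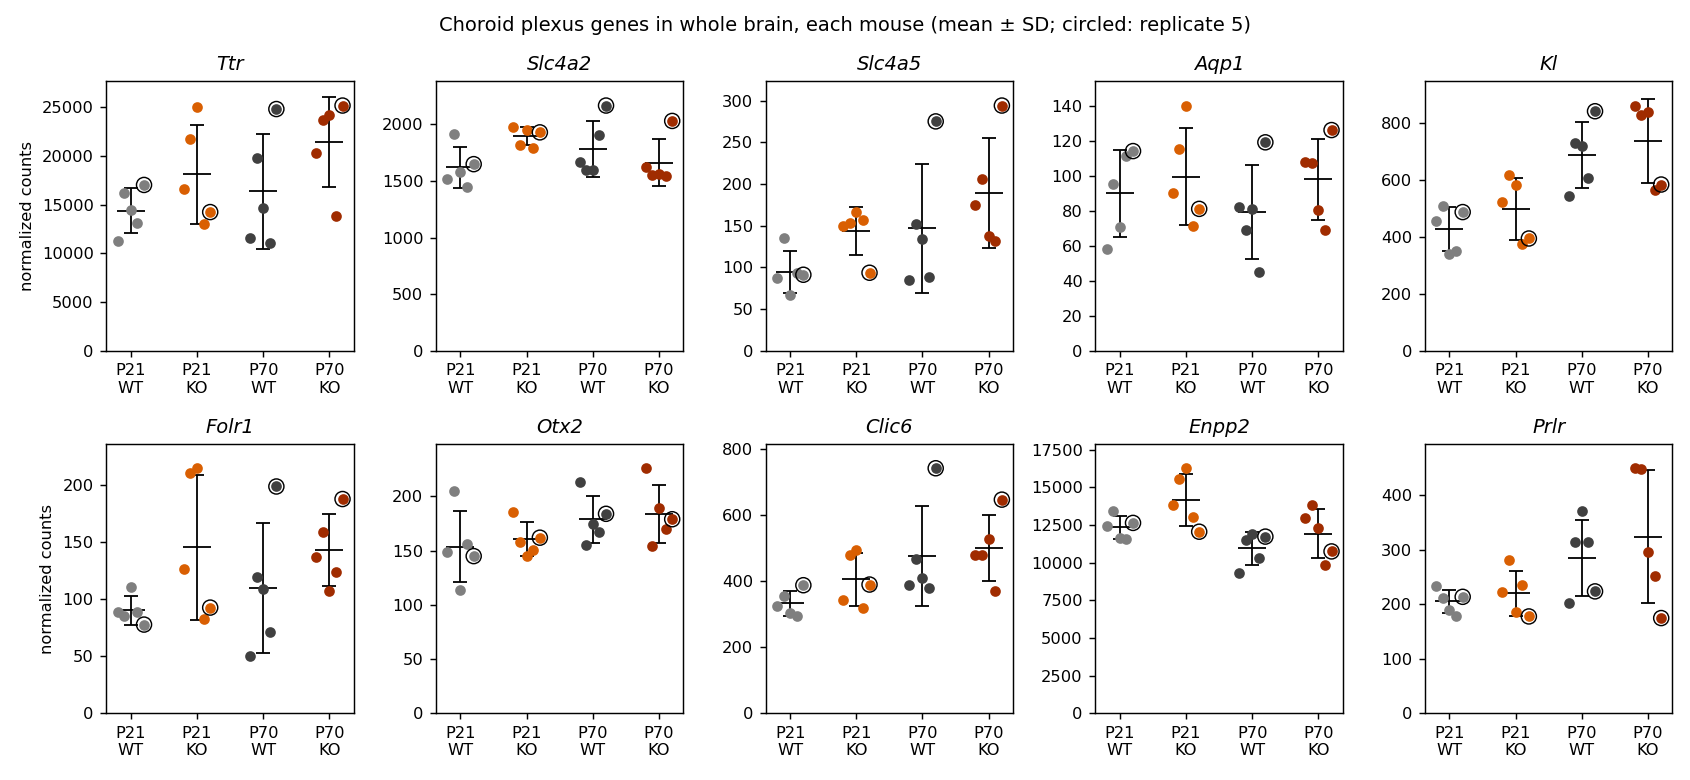
Normalized counts of the 10 genes in whole brain (vertical axis, from 0) in each mouse, by age and genotype on the horizontal axis, with the mean and SD of each group of 5 mice and the replicate 5 mice circled. All 10 genes overlap between KO and WT at both ages, Kl is higher at P70 than at P21 in WT mice, and both circled P70 mice are high for Slc4a5 (294 and 275) and Clic6 (647 and 742).

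At P21 all 10 genes had a higher mean log2 level in Katnal2-KO than in WT brains, but none passed the test across all genes. Their median log2 fold change was 0.22, against 0.004 over the 17610 genes tested, of which 52.5% were positive. No gene passed an adjusted p of 0.05 by limma with Benjamini-Hochberg adjustment, either among the 10 or among all genes (0%). At an unadjusted p under 0.05 there were 4 of the 10 genes, Slc4a2, Slc4a5, Enpp2 and Folr1, against 2.44% of all genes. For none of the 10 did every KO mouse lie above every WT mouse, which 0.256% of all genes did. Whole brain was sampled, so more epithelial cells in the sample and more RNA per cell cannot be told apart. Most of the 10 genes also moved together from mouse to mouse, as described below, so their shared sign is not 10 separate observations, and Otx2 and Prlr stood at -0.02 and -0.01 when 1 mouse was left out.

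Of the bicarbonate transporters, Slc4a5 had the largest difference at P21. Its normalized counts in KO replicates 1 to 5 were 150, 153, 166, 157 and 93.5, and in the WT mice 87.4, 135, 66.3, 93.4 and 91.1. The first 4 KO mice were above all WT mice, and the last lay among them. The log2 fold change was 0.61 ± 0.19 (SE), a 1.53-fold higher mean level, with an adjusted p of 1 by limma and an exact permutation p of 0.0159 (two-sided, 5 against 5 mice). Slc4a2 had the tightest KO group, with 1977, 1822, 1952, 1796 and 1930 normalized counts against 1520, 1917, 1580, 1446 and 1649 in WT. Only WT replicate 2 reached the KO range. For Slc4a2 the log2 fold change was 0.23 ± 0.07, with an adjusted p of 1 by limma and an unadjusted exact permutation p of 0.0238.

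The means of both secreted products were also higher in the P21 KO mice. Ttr stood at 16610, 21723, 25034, 13020 and 14243 normalized counts in the P21 KO mice and at 11226, 16198, 14457, 13086 and 17031 in the WT mice. KO replicates 2 and 3 were above every WT mouse, and the other 3 lay within the WT range. The log2 fold change of Ttr was 0.30 ± 0.17, with a 95% interval of -0.06 to 0.66 and an exact permutation p of 0.206. Enpp2 stood at 13805, 15577, 16261, 13048 and 12052 in KO and at 12438, 13407, 11611, 11582 and 12636 in WT. Its log2 fold change was 0.19 ± 0.08 with an exact permutation p of 0.0714, and the groups overlapped.

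Among the receptors, Folr1 varied most within the P21 KO group relative to its mean (CV 43.6%). Its values were 127, 211, 215, 82.7 and 92.8 normalized counts in KO, against 88.6, 85.5, 111, 88.5 and 77.9 in WT. KO replicates 1 to 3 were above every WT mouse and replicates 4 and 5 were within the WT range, the same 2 KO mice in which Ttr, Kl and Aqp1 were lowest. For Folr1 the log2 fold change was 0.58 ± 0.25, with an exact permutation p of 0.0873. Kl, at 375 to 617 in KO and 342 to 508 in WT, had a log2 fold change of 0.21 ± 0.16. Prlr had one of 0.09 ± 0.12, with an interval of -0.18 to 0.35.

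The remaining genes at P21 were Clic6, Aqp1 and Otx2. Clic6 had a log2 fold change of 0.27 ± 0.12, with 319 to 494 normalized counts in KO and 296 to 388 in WT. Aqp1 (71.1 to 140 against 58.2 to 114) had a log2 fold change of 0.15 ± 0.22, with an interval of -0.32 to 0.62. Otx2 had one of 0.08 ± 0.13 (145 to 186 against 114 to 205). These intervals do not exclude differences in either direction for Aqp1 and Otx2. Single mice moved several P21 values by over 1.5 times. Ttr was 0.18 without KO replicate 3, Kl was 0.12 without KO replicate 2 and 0.13 without WT replicate 3, and Aqp1 was 0.01 without WT replicate 1 and 0.02 without KO replicate 3. The 5 genes of a blood list (the haemoglobin genes and Alas2) had lower means in P21 KO brains, at unadjusted p under 0.05 in each (2.44% of all genes), with summed counts of 12038 to 30949 against 24464 to 61276 in WT. None passed the adjusted test. At P70 all 5 were positive (median log2 fold change 0.20, none at an unadjusted p under 0.05), and in the interaction all 5 had an unadjusted p under 0.05 (median 0.95, 1.68% of all genes) without passing adjustment in limma. The part of blood in the differences of the 10 genes was not tested.

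**Figure D2:**
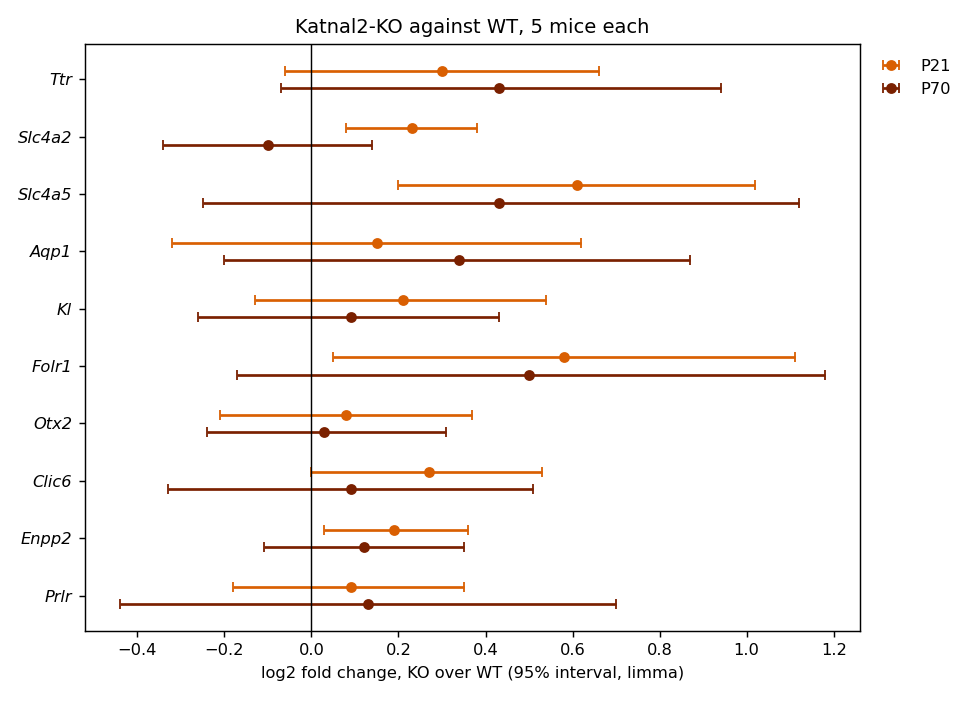
Log2 fold change of each gene in KO over WT brains at P21 and at P70 (horizontal axis, points) with 95% intervals from limma (bars), 5 mice per group. At P21 all 10 points lie above 0 and at P70 Slc4a2 alone lies below it, and none of the differences passed adjustment over all genes.

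At P70, 9 of the 10 genes had a higher mean log2 level in KO brains, with Slc4a2 on the other side. The median log2 fold change was 0.13, against -0.005 over 17613 genes, of which 47.8% were positive. None of the 10 genes, and 0% of all genes, passed the adjusted threshold in limma. None of the 10 had an unadjusted p under 0.05, against 1.13% of all genes, and for none were all KO mice above all WT mice, against 0.0965% of all genes. With the replicate number as a block in limma, 4 of the 10 had an unadjusted p under 0.05, against 610 of 17613 genes. None of the 10 passed adjustment there, and whether the numbers mark pairs is not labelled. No exact permutation p was below 0.05 for any of the 10 genes at P70.

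Ttr had 20351, 23712, 24257, 13843 and 25188 normalized counts in P70 KO brains and 11547, 19833, 14613, 11028 and 24828 in WT brains. Of the KO mice 4 of 5 were above every WT mouse except replicate 5. The KO mean was higher by 0.43 ± 0.23 on the log2 scale, with a 95% interval of -0.07 to 0.94, an adjusted p of 1 and an exact permutation p of 0.167. Folr1 (107 to 188 in KO, 50.3 to 199 in WT) differed by 0.50 ± 0.31, Slc4a5 (132 to 294 and 84.9 to 275) by 0.43 ± 0.32, and Aqp1 (68.7 to 126 and 45.1 to 119) by 0.34 ± 0.24 on the log2 scale. The highest WT mouse for each of these 3 genes was replicate 5. Slc4a2 stood at 1628, 1551, 1562, 1540 and 2031 in KO and at 1668, 1597, 1596, 1905 and 2167 in WT, a log2 fold change of -0.10 ± 0.11. The other genes had the smallest differences for which KO was higher at P70, with log2 fold changes of 0.13 ± 0.26 for Prlr, 0.12 ± 0.10 for Enpp2, 0.09 ± 0.16 for Kl, 0.09 ± 0.19 for Clic6 and 0.03 ± 0.13 for Otx2.

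Without the 2 replicate 5 mice, 3 of the 10 genes had an unadjusted p under 0.05 at P70, against 3.69% of all genes. These were Ttr (log2 fold change 0.53 ± 0.19), Folr1 (0.65 ± 0.25) and Slc4a5 (0.52 ± 0.21), and the adjusted p of each was 0.999. Kl (0.24 ± 0.14), Prlr (0.25 ± 0.21) and Clic6 (0.17 ± 0.11) were over 1.5 times their values with all mice, with the same adjusted p of 0.999 by limma, and Slc4a2 was again at -0.10, though it ran from -0.18 (without KO replicate 5) to -0.03 (without WT replicate 5) with 1 mouse left out. Leaving out 1 mouse could also lower these values, and the lowest were 0.26 for Folr1 (without WT replicate 1), 0.26 for Slc4a5 (without KO replicate 5), 0.15 for Aqp1 (without WT replicate 4) and 0.31 for Ttr (without WT replicate 4). Kl was lowest at 0.01 (without WT replicate 1), Clic6 at -0.00 (without KO replicate 5), Prlr at -0.01 (without KO replicate 1 or 2) and Enpp2 at 0.06 (without KO replicate 2 or WT replicate 1). At P21 leaving out the replicate 5 mice gave 6 genes at an unadjusted p under 0.05, against 3.45% of all genes, and none at an adjusted p under 0.05.

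The differences between genotypes at the 2 ages were compared directly with the age by genotype interaction over all 20 mice. None of the 10 genes and 0% of all genes passed the adjusted threshold in limma, and 1 of the 10 genes, against 1.68% of all genes, had an unadjusted p under 0.05. That gene was Slc4a2, the chloride and bicarbonate exchanger, whose log2 fold change for KO over WT went from 0.23 at P21 to -0.10 at P70, an interaction of -0.33 ± 0.13 (adjusted p of 1). Without the replicate 5 mice it was -0.33 ± 0.11, again with an adjusted p of 1, and no gene was called. For Ttr the interaction was 0.13 ± 0.31 with an interval of -0.52 to 0.77, and for Folr1 it was -0.08 ± 0.42. These intervals are wide enough to hold differences as large as the genotype differences themselves.

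Between P21 and P70, the gene that rose in WT brains was Kl. Its normalized counts were 455, 508, 342, 352 and 488 at P21 and 543, 732, 722, 609 and 843 at P70, and every P70 mouse was above every P21 mouse. The log2 fold change was 0.69 ± 0.14, a 1.61-fold rise, with an adjusted p of 0.00877 by limma. Of all genes, 4.62% were called higher and 4.7% lower at P70 in WT mice, the background beside which 1 of the 10 genes stands. In KO brains Kl stood at 522, 617, 582, 375 and 395 at P21 and at 863, 830, 842, 566 and 585 at P70. In KO the log2 fold change was 0.57 ± 0.17 with an adjusted p of 0.0623, and the groups overlapped. The interaction of Kl was -0.12 ± 0.24, so the age changes were not shown to differ between genotypes.

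In KO brains none of the 10 genes passed the adjusted threshold in limma, while 3.78% of all genes were called higher and 4.53% lower at P70, and 3 of the 10 genes had an unadjusted p under 0.05, close to the 22.7% of all genes that did. In WT brains 4 of the 10 did, against 24.5% of all genes. Also in WT brains Clic6 (log2 fold change 0.47 ± 0.16, adjusted p of 0.0876) and Prlr (0.44 ± 0.16, adjusted p of 0.0981) had higher means at P70 without passing. Prlr in KO brains spanned 178 to 281 normalized counts at P21 and 175 to 450 at P70, with replicate 5 the lowest and replicates 1 and 2 the highest at P70. Enpp2 had lower means at P70 in both genotypes, by -0.18 ± 0.08 in WT (adjusted p of 0.177) and -0.25 ± 0.11 in KO (adjusted p of 0.191). Slc4a2 differed by 0.14 ± 0.10 in WT and by -0.20 ± 0.08 in KO on the log2 scale, and Slc4a5 by 0.53 ± 0.28 and 0.35 ± 0.22. Slc4a2 stood at 0.07 in WT and -0.26 in KO without the replicate 5 mice, and Slc4a5 at 0.27 and 0.03. In WT, Slc4a2 ran from 0.06 to 0.2 with 1 mouse left out. Ttr, with 0.13 ± 0.20 and 0.26 ± 0.20 (0.03 and 0.12 without the replicate 5 mice), Folr1, Aqp1 and Otx2 did not pass the test in either genotype. The WT comparison of ages and the KO comparison use different mice, but each shares its mice with the genotype comparisons above.

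Several age calls rested on single mice. Without P70 WT replicate 5, Clic6 (0.30, adjusted p of 0.0482) and Prlr (0.52, adjusted p of 0.0352) were called higher at P70 in WT brains, where 8.89% of all genes were. Prlr was also called without P70 WT replicate 1 (0.55, adjusted p of 0.0381), with 3.16% of all genes higher. Without P70 KO replicate 5, Kl (0.65, adjusted p of 0.0146) and Prlr (0.69, adjusted p of 0.0191) were called higher in KO brains and Slc4a2 lower (-0.27, adjusted p of 0.00145), where 10.6% of all genes were called higher and 10.7% lower. Kl was also called in KO brains without P70 KO replicate 4 (0.66, adjusted p of 0.0484), with 2.63% of all genes higher. Kl in WT brains was called whichever mouse was left out, with log2 fold changes of 0.61 to 0.77. With no replicate 5 mice, 2 genes were called in WT (Kl and Clic6, against 8% of all genes higher) and 3 in KO (Kl and Prlr higher and Slc4a2 lower, against 9.67% of all genes higher and 9.69% lower). All these adjusted p-values are from limma with Benjamini-Hochberg adjustment over all genes.

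**Figure D3:**
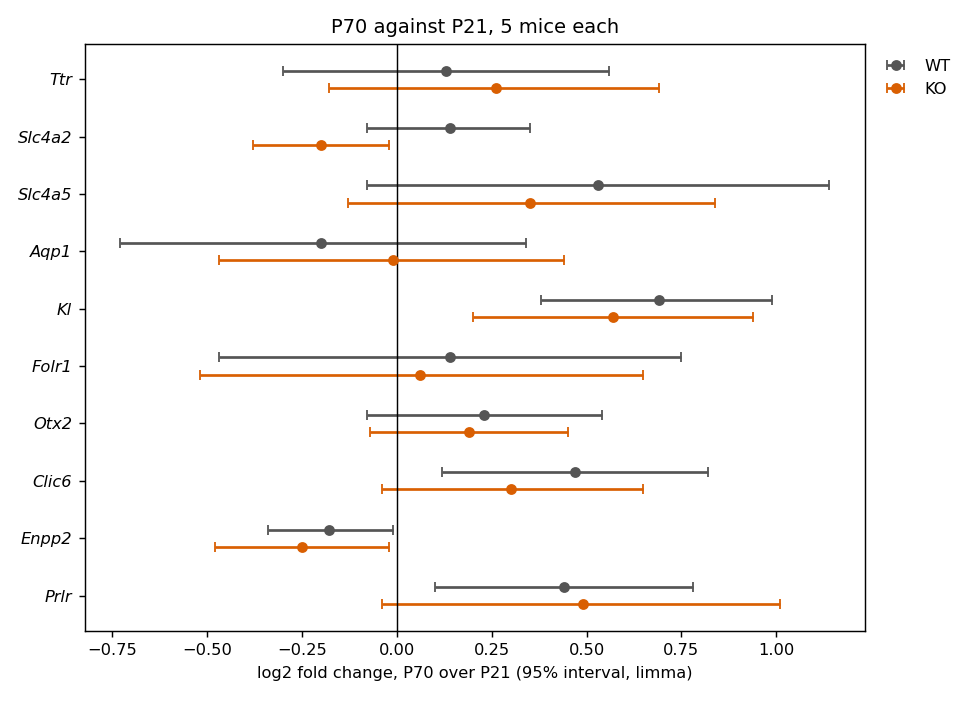
Log2 fold change of each gene at P70 over P21 in WT and in KO brains (horizontal axis, points) with 95% intervals from limma (bars), 5 mice per group. Kl has the largest values, 0.69 in WT and 0.57 in KO, and Enpp2 lies below 0 in both genotypes.

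Markers of other cell types also changed with age. In WT brains 10 of 12 genes of an oligodendrocyte list fell, among them Mog (log2 fold change -1.44 ± 0.08, adjusted p of 2.87e-07 by limma). In KO brains 11 of 12 fell. Of all genes, 4.7% in WT and 4.53% in KO were called lower. The summed counts of this list were 404875 to 455912 in P21 WT and 172731 to 196593 in P70 WT mice, and no marker was at 0 in any group. The lower mean of Enpp2 at P70, given above, was a smaller difference than that of Mog. After removal of group means, Enpp2 correlated with the oligodendrocyte list at r = 0.28 (Spearman's rho 0.21, permutation p of 0.32 and 0.44, adjusted p of 0.86 and 1 over the 10 genes, 20 mice). That correlation leaves out the difference between ages, and the part of these cells in the age values of Enpp2 was not tested. Blood genes were lower at P70 as well, with 5 of 5 called in WT and 4 of 5 in KO. Depth and age move together in these libraries, and ages were sampled as separate mice, so any difference in handling between ages cannot be told apart from age.

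From mouse to mouse, most of the 10 genes followed Ttr. Each gene's log2 values were centred on its group mean, and correlated with those of Ttr over the 20 mice in 9 relations. Clic6 was closest, with Pearson's r = 0.88 (Spearman's rho 0.89, permutation p of 3.0e-05 and 2.0e-05, adjusted over the 9 relations 0.00027 and 0.00018). The water channel Aqp1 followed at r = 0.75 and Folr1 at 0.78, with rho of 0.73 and 0.72. Slc4a5 had r = 0.71, Enpp2 0.70 and Kl 0.69, with rho of 0.69, 0.62 and 0.71. Adjusted permutation p-values of r for these 5 genes were 0.0027 for Aqp1, 0.004 for Folr1, and 0.0044 for each of Slc4a5, Enpp2 and Kl, and those of rho were 0.0043 for Aqp1, 0.0087 for Folr1 and Slc4a5, 0.0055 for Kl and 0.016 for Enpp2. Both values of a point come from the same library, and the amount of choroid plexus in each brain sample was not measured separately.

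The other 3 genes did not follow Ttr past the threshold. Slc4a2, which many brain cells express, had r = 0.40 and rho 0.35, with permutation p of 0.13 and 0.17 and adjusted p of 0.17 and 0.22. Otx2 (r = -0.08, rho -0.04, permutation p of 0.73 and 0.87, adjusted 0.82 and 0.9) and Prlr (r = -0.02, rho -0.04, permutation p of 0.95 and 0.9, adjusted 0.95 and 0.9) showed next to no relation. Which cells of the brain gave the counts of Otx2 and Prlr was not tested.

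Leaving out the 2 mice farthest from the Ttr median, P70 WT replicate 5 and P70 KO replicate 4, r fell to 0.79 for Clic6, 0.75 for Folr1, 0.63 for Aqp1, 0.62 for Enpp2, 0.59 for Kl and 0.53 for Slc4a5. All 6 kept an adjusted permutation p under 0.05, at 0.0041 for Clic6, 0.037 for Folr1 and 0.048 for each of the other 4. Slc4a2 fell to r = 0.10. Without any replicate 5 mouse the same 6 genes passed by r, from 0.55 for Slc4a5 to 0.88 for Clic6, and Prlr stood at 0.26. By rho only 3 of them passed there, Clic6, Kl and Enpp2, with adjusted permutation p of 0.095 for Slc4a5 and Folr1 and 0.14 for Aqp1. Within P21 alone (10 mice), r was 0.84 for Clic6, 0.83 for Aqp1, 0.82 for Enpp2, 0.77 for Folr1, 0.73 for Kl, 0.41 for Slc4a2 and 0.40 for Slc4a5. None passed adjustment there, and the smallest adjusted permutation p was 0.056. Within P70 alone, r was 0.90 for Clic6 and 0.85 for Slc4a5, which passed (by rho Slc4a5 did not, with an adjusted permutation p of 0.054), and 0.79 for Folr1, 0.70 for Aqp1, 0.68 for Kl, 0.63 for Enpp2 and 0.40 for Slc4a2, which did not. The value of r for Slc4a5 was higher at P70 than at P21, a difference that was not tested.

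**Figure D4:**
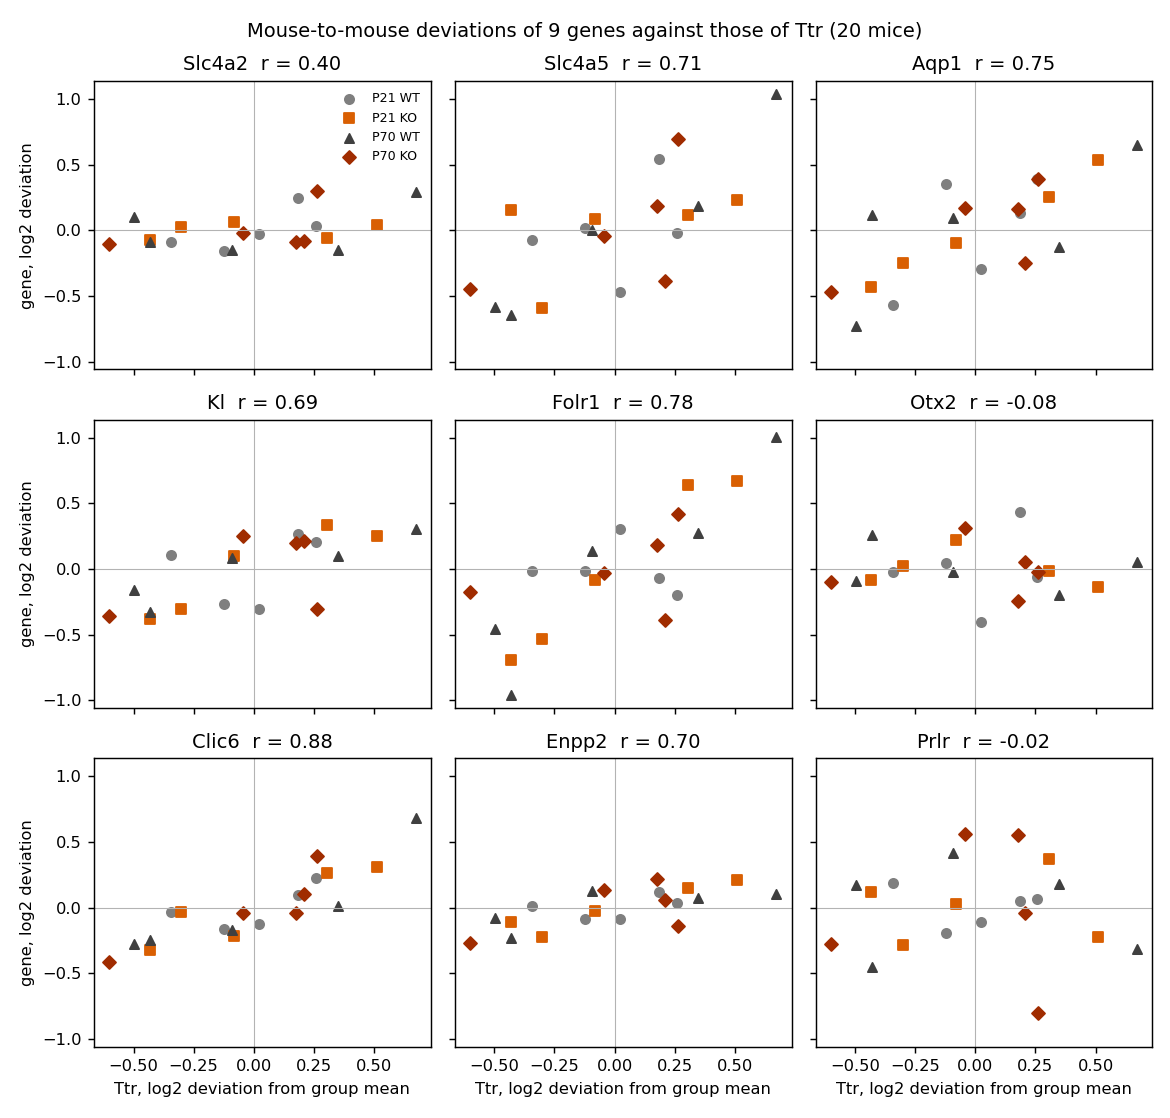
Deviation of each of 9 genes from its group mean (vertical axis, log2) against that of Ttr (horizontal axis, log2) in the 20 mice, with Pearson's r in each title and symbols for age and genotype. Clic6, Folr1 and Aqp1 rise with Ttr over the 20 mice, while Otx2 and Prlr show no slope.

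The genes whose deviations were most like those of Ttr were read off all 17636 other genes, by Pearson's r over the 20 mice. Clic6 ranked 1, followed by 1500015O10Rik (r = 0.875), the tight junction gene Cldn2 (0.851), Lat2 (0.848), Wdr86 (0.839), Mfrp (0.832), Tgfb1 (0.832), Suox (0.830), Creb3 (0.824) and Cdkn1c (0.824). Cldn2 and 1500015O10Rik belong to the list of choroid plexus identity genes described below. Of the 10 genes, Folr1 ranked 27, Aqp1 48, Slc4a5 107, Enpp2 122 and Kl 151. Slc4a2 ranked 3634, Prlr 9265 and Otx2 9987, in the body of the genome-wide order. These ranks describe 20 libraries and carry no test.

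Levels relative to Ttr were compared between genotypes as the log2 level of each gene minus that of Ttr, which does not move with the amount of choroid plexus in a sample where both genes come from it. Of 18 exact permutation tests, 9 genes at 2 ages, none passed Benjamini-Hochberg adjustment, and 1 had an unadjusted p under 0.05. Clic6 at P70 stood at -5.41 ± 0.16 in KO and -5.07 ± 0.22 in WT (SD, n = 5), a difference of -0.34 with an exact permutation p of 0.0397 and an adjusted p of 0.592. It was -0.13 (exact permutation p of 0.333) against the mean of the other genes in place of Ttr, and -0.37 (exact permutation p of 0.0857) without the replicate 5 mice. Slc4a2 at P70 differed by -0.53 (-3.67 ± 0.32 and -3.13 ± 0.47, exact permutation p of 0.0873), and by -0.34 against the mean of the other genes. Many brain cells express Slc4a2, so its level relative to Ttr can move with the amount of choroid plexus in the sample. At P21 the ratio of Slc4a2 to Ttr differed by -0.07 (exact permutation p of 0.746) and that of Slc4a5 by 0.31 (exact permutation p of 0.23). With 1 P21 mouse left out, these differences ran from -0.16 to 0.04 for Slc4a2 and from 0.16 to 0.40 for Slc4a5.

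Few other genes of fluid production passed a test. Of 32 further ion and fluid transport genes, none passed adjustment for KO against WT at either age (limma), with 23 of 32 positive at P21 and 14 of the 31 tested positive at P70, and 2 and 0 at an unadjusted p under 0.05 (2.44% and 1.13% of all genes). The median log2 fold changes were 0.06 and -0.01, and of all genes 52.5% were positive at P21 and 47.8% at P70. The 2 with the smallest p at P21 were Kcnj13, an apical potassium channel (0.52 ± 0.19), and Car14, a carbonic anhydrase (0.26 ± 0.12), both with an adjusted p of 1. At P70 they were Kcne2, a potassium channel subunit (0.53 ± 0.27), and Slc2a12 (-0.20 ± 0.14). With age in WT brains 3 of the 32 rose and 2 fell, against 4.62% of all genes higher and 4.7% lower, among them Car12 (0.68 ± 0.08, adjusted p of 0.000308), a carbonic anhydrase, and Slc5a3 (0.84 ± 0.18, adjusted p of 0.0122), a myo-inositol transporter. Slc31a1, a copper transporter, fell (-0.52 ± 0.07, adjusted p of 0.000371). In KO brains 3 rose and 1 fell with age, and without the replicate 5 mice 6 rose and 2 fell in WT and 5 rose and 8 fell in KO. The shares of all genes were 3.78% and 4.53% in KO, and without the replicate 5 mice 8% and 6.99% in WT and 9.67% and 9.69% in KO. Many of these transporters are also expressed by neurons or glia.

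Of 35 measured choroid plexus identity and secretion genes, which share Kcnj13 with the transport list, 31 were positive for KO against WT at P21 and 30 at P70, with median log2 fold changes of 0.15 and 0.09, and none passed adjustment in limma. Of all genes, 52.5% were positive at P21 and 47.8% at P70. At an unadjusted p under 0.05 there were 5 identity genes at P21 and 0 at P70, against 2.44% and 1.13% of all genes. Abca4 (0.40 ± 0.11) and the epithelial keratin Krt18 (0.68 ± 0.20) had the smallest p at P21, and Krt8 (0.52 ± 0.29) and 1500015O10Rik (0.32 ± 0.21) at P70. With age in WT brains 3 rose and 2 fell, against 4.62% and 4.7% of all genes. Spint2, a protease inhibitor (0.53 ± 0.11, adjusted p of 0.00938), and Cab39l (0.36 ± 0.09, adjusted p of 0.0314) rose, while Cldn1, a claudin (-0.59 ± 0.13, adjusted p of 0.014), and Htr2c, a serotonin receptor (-0.44 ± 0.11, adjusted p of 0.0284), fell. Kcnj13 (0.70 ± 0.20, adjusted p of 0.0472 by limma), chosen after its values were seen, is counted among the risen genes of both lists. In KO brains 2 rose and 1 fell, against 3.78% and 4.53% of all genes. Without the replicate 5 mice the identity genes gave the same counts of age calls, while the shares of all genes rose to 8% and 6.99% in WT and to 9.67% and 9.69% in KO. At P70 in that setting 33 of 35 were positive for KO against WT, with 3 at an unadjusted p under 0.05 (3.69% of all genes) and none passing adjustment.

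Neighbouring tissues were read from lists of their own. All 14 tested ependymal and motile cilia genes were positive for KO against WT at P21 and 13 of 14 at P70, with medians of 0.14 and 0.17 on the log2 scale. Of all genes, 52.5% were positive at P21 and 47.8% at P70. Whether the genes of a list moved together was not tested, so their signs are not counted as separate observations. None of the ependymal genes passed adjustment in limma, with 2 and 0 at an unadjusted p under 0.05 (2.44% and 1.13% of all genes), led at P21 by Foxj1 (0.29 ± 0.09) and Dnah11 (0.36 ± 0.14). The summed counts of the ependymal list were 1085 to 1566 in P21 KO mice, 975 to 1168 in P21 WT mice, 1236 to 1694 in P70 KO mice and 967 to 1671 in P70 WT mice. No ependymal gene passed adjustment with age, in either genotype. Of 12 stromal and meningeal genes, 11 were positive at P21 and 8 at P70, none at an unadjusted p under 0.05, with summed counts of 3828 to 6356 in P21 KO and 4479 to 4849 in P21 WT mice. With age in WT brains 1 of these rose, Slc22a6 (0.51 ± 0.14, adjusted p of 0.0347), and 2 fell, Col1a1 (-0.65 ± 0.10, adjusted p of 0.0015) and Col1a2 (-0.57 ± 0.07, adjusted p of 0.000166), against 4.62% and 4.7% of all genes. In KO brains none rose and 2 fell, against 3.78% and 4.53%. Oligodendrocyte genes were positive for 11 of 12 at P21 and 3 of 12 at P70, with medians of 0.11 and -0.07. At an unadjusted p under 0.05 there were 1 and 0 (2.44% and 1.13% of all genes). The interaction had 2 (median -0.18, 1.68% of all genes). Without the replicate 5 mice these counts were 5 at P21 (3.45%), 1 at P70 (3.69%) and 7 for the interaction (median -0.28, 702 of 17643 genes). None passed adjustment in limma in either setting. Summed counts of the oligodendrocyte list were 404233 to 591913 in P21 KO mice and 155848 to 204791 in P70 KO mice. Without the replicate 5 mice 12 of 14 ependymal, 8 of 12 stromal and 3 of 12 oligodendrocyte genes were positive at P70, none passing adjustment, and with age in WT brains 1 ependymal gene fell, and 2 stromal genes rose and 2 fell (8% of all genes higher and 6.99% lower). In KO brains in that setting 2 stromal genes fell (9.69% of all genes lower). The part of any of these cells in the levels of the 10 genes was not tested.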

How the data were processed

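Whole-brain RNA of 20 male mice was sequenced (TruSeq kit, paired-end reads). The authors quantified transcripts with Salmon against GRCm38, correcting for GC bias. The authors summed these to genes through tximport and normalized them by DESeq2. Versions, here Salmon 1.1.0, DESeq2 1.26.0 and R 3.6.2, are those of the submitters' processing notes, and the methods of the authors name others for DESeq2 and R. The deposited values are this normalized signal, in normalized counts that are not whole numbers, and whole reads could not be recovered. Columns were matched to mice by title.

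The 10 genes and all lists were chosen with earlier results of these data known. Each comparison was fitted with limma 3.58.1 (R 4.3.3, with a trend of the variance on level) after adding 1 and taking log2. Genes averaging under 10 in the mice compared were left out. Benjamini-Hochberg adjustment ran over all genes tested, with a threshold of 0.05. Fold changes are on that scale, which understates those of low genes. The fit was tested on simulated data. Exact permutation tests were two-sided, and those of KO against WT levels were not adjusted for the number of tests. Correlations used 100000 permutations within groups (Python 3.11.15, numpy 2.4.6). Levels per kilobase used the principal transcript of GENCODE M21 and promoters came from RefSeq. Named genes were the 10, Katnal2, the 10 most like Ttr, and from each list the 2 with the smallest p for KO against WT and the 2 in each direction for age in WT, of which some are not reported here. Mice are separate animals, and no batch is labelled. Alternatives were no trend, other filters and pseudocounts, quantile normalization, a single fit, mice left out, and a replicate block. Genes that share reads with a close copy, such as the haemoglobin genes, are uncertain.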

Additional observations from a re-analysis of the deposited data

Results flagged for a closer look

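In 3 groups, 1 mouse lay far from the other 4 for 1 of the 10 genes, by the gap to its neighbour as a share of the group's range. Slc4a2 in P70 KO replicate 5 was 2031 normalized counts, with the next mouse at 1628 (gap 0.82 of the range). Slc4a5 in P21 KO replicate 5 was 93.5, with the next at 150 (gap 0.784). Clic6 in P70 WT replicate 5 was 742, with the next at 466 (gap 0.761). Chance marks about 1 in 20 groups, and 40 were examined, for 10 genes in 4 groups. The 3 mice carry the replicate number 5. Without the replicate 5 mice the P70 log2 fold change of KO over WT was -0.10 for Slc4a2, as with them, and 0.17 for Clic6, against 0.09 with them, and that of Slc4a5 at P21 was 0.75, against 0.61.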

How the results depend on the processing

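None of the 10 genes was called by limma for KO against WT at either age, or for the interaction, under any alternative tried. Genes called for P70 against P21 in WT ranged from 1 to 3 with single mice left out and numbered 2 without the replicate 5 mice, and in KO from 0 to 3, 1 in a single fit of all mice, and 3 without the replicate 5 mice. Genes called in all moved too, in WT from 815 higher and 828 lower to 1569 and 1431 without P70 WT replicate 5, and in KO from 667 and 800 to 1864 and 1895 without P70 KO replicate 5. Correlations with Ttr past the threshold by Pearson's r numbered 0 within P21 and 2 within P70, against 6 over all mice. By Spearman's rho 1 passed within P70, and 3 without the replicate 5 mice.

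Signs of small log2 fold changes turned when single mice were left out: Otx2 for KO against WT (-0.02 to 0.19 at P21, -0.04 to 0.10 at P70), Prlr (-0.01 to 0.16 and -0.01 to 0.33), Ttr (-0.04 to 0.25) and Folr1 (-0.11 to 0.38) for age in WT, and Aqp1 (-0.12 to 0.12) and Folr1 (-0.11 to 0.23) for age in KO. Without the replicate 5 mice Folr1 for age was -0.16 in WT and -0.18 in KO, and with quantile normalization Aqp1 for age in KO was 0.02. The correlation of Prlr with Ttr was 0.02 within P21, 0.01 without the 2 farthest mice and 0.26 without the replicate 5 mice. The cause was not tested.

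The replicate numbers were not taken to pair the mice, since no pairing is labelled. Same-numbered KO and WT deviations correlated at -0.009 to 0.260 at P21 and at 0.075 to 0.705 at P70. Mice of different numbers were not compared in this way, so these values do not decide whether the numbers mark pairs. With a replicate block, none of the 10 genes was called, and those at an unadjusted p under 0.05 went from 4 to 6 at P21 and from 0 to 4 at P70 (Ttr, Slc4a5, Folr1 and Aqp1). Ttr at P70 was 0.43 ± 0.10 (adjusted p of 1 by limma), and unadjusted p under 0.05 rose from 429 to 732 genes at P21, from 199 to 610 at P70 and from 296 to 710 for the interaction. Without the replicate 5 mice 1 gene, none of the 10, was called at P70 for KO against WT. With 5 mice per group the exact test cannot go below 0.00794.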
